A study of Mus musculus with 2 samples.

Results

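Macrophages that carry complement C1q transcripts were a small class in the ovaries of newborn mice: 65 of 5277 barcodes in one library and 25 of 4819 in the other, 90 of 10096 in all. A barcode was taken as a member when C1qa, C1qb and C1qc together reached at least 10 UMIs (unique molecular identifiers, each standing for 1 captured transcript) per 10,000 of its total, and S100a8 and S100a9 together stayed below 100. The study sequenced dissociated ovaries of C57BL pups at postnatal day 3 with the 10x Genomics 3′ assay, 1 library per group. In the group MLT the mother received melatonin (MLT) from E16.5 (embryonic days), with DMSO in place of DEHP. In the group DEHP_MLT the mother was gavaged with DEHP, a phthalate plasticizer, and received the same melatonin later in the day. Both groups therefore carry melatonin, no untreated group was analysed here, and the sources used here do not give the number of pups behind a library.

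The deposited tables and the sample titles disagree. For the sample with the title MLT, the deposited table carries DEHP_MLT in its name, and the reverse holds for the other sample. Groups were taken from the titles, and every direction between the libraries given here would reverse if the table names were the right ones. With 1 library per group no test between groups was possible. All intervals are 95% intervals that cover counting error only, and cells of 1 library are not replicates.

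C1q is the recognition unit of the classical complement pathway, a hexamer built from A, B and C chains that the genes C1qa, C1qb and C1qc encode. It binds antibody complexes and the surface of dying cells, and in most tissues macrophages are its main source. Tissue macrophages arise from embryonic precursors or from blood monocytes, depend on the receptor Csf1r, and clear apoptotic cells, which in the perinatal ovary include many lost oocytes. Resident cells commonly carry Mrc1 (a mannose receptor), Pf4 (a chemokine also made by platelets) and Cx3cr1 (the fractalkine receptor), while newly arrived monocytes carry Ly6c2, Ccr2 and Plac8.

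The upstream sequences of the rule's marker genes are shown because these genes chose or mark the class and were read at under 5 CPM (UMIs per 1000000 of the summed UMIs of a class) in somatic cells of both libraries. They come from RefSeq on the build GRCm38.p6, which is not the mm9 build named in the submitters' processing notes. Of C1qa, C1qb, C1qc and Pf4, the table of promoters held C1qb, C1qc and Pf4. Letters run 5′ to 3′ on the strand of the gene, up to 250 bases before its start, and bases that fall in an annotated exon were left off, which shortened C1qc to 99 bases. Capitals mark GAGGAA or its reverse complement, the core letters bound by PU.1 (the product of Spi1, a master regulator of macrophages).
C1qb, chr4:136886201-136886450, minus strand: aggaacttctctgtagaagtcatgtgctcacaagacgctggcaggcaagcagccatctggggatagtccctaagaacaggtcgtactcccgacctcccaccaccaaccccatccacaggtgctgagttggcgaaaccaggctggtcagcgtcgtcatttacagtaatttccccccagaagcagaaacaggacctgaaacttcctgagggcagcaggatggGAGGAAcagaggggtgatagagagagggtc
C1qc, chr4:136893066-136893164, minus strand: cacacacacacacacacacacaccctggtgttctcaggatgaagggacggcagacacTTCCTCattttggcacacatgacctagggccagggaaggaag
Pf4, chr5:90772185-90772434, plus strand: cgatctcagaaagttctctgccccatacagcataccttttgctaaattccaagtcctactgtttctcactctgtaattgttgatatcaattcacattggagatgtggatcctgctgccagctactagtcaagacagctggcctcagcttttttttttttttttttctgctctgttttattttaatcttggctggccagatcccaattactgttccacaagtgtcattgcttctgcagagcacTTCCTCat
Each window held 1 match. It began 30 bases before the start of C1qb, 193 before that of C1qc and 8 before that of Pf4. In C1qc and Pf4 the match was part of the longer run GAGGAAGT. On either strand, 23.3% of 32851 mouse promoter windows of 250 bases held GAGGAA and 2.44% held GAGGAAGT, so the shorter run is common and a match is a description of letters, not of binding. Spi1 itself was read at 405 CPM in MLT members and 422 CPM in DEHP_MLT members, against 2.83 and 1.01 CPM in somatic cells.

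The members held a median of 11073 UMIs in MLT (2060 to 26301) and 12544 in DEHP_MLT (7639 to 24807), and 688818 and 360092 UMIs in total. Their median number of genes was 3384 and 3435, and their median mitochondrial share 3.10% and 3.76%. The MLT library holds barcodes down to 2031 UMIs and the DEHP_MLT library none below 6923, and 23 MLT members lay below that floor. The whole libraries held 80657690 and 117355739 UMIs. They shared 4 barcode sequences, none of them a member.

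The members were chosen by their C1qa, C1qb, C1qc, S100a8 and S100a9 levels, which are given as a description. C1qa, C1qb and C1qc together had a median of 73.3 UMIs per 10,000 in MLT members, up to 255, and of 76.2 in DEHP_MLT members, up to 159. The members just inside the threshold stood at 12.7 and 16.1 in MLT and at 12.9 and 18.3 in DEHP_MLT. Just outside it, the nearest barcodes stood at 9.26 and 8.71 in MLT and at 8.73 and 6.13 in DEHP_MLT. Between 5 and 10 per 10,000 lay 10 MLT and 4 DEHP_MLT barcodes. No barcode with C1q of at least 10 was removed by the S100a8 and S100a9 limit in either library. At least 1 C1q UMI was found in 763 of 5212 MLT barcodes and 447 of 4794 DEHP_MLT barcodes that were no members, so single UMIs of these genes were spread over other cells.

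The label was read against lists of marker genes. All 11 genes of a macrophage marker list were found in at least 25% of the members of each library, and every member had a UMI of Csf1r, Ptprc, Fcer1g or Tyrobp. Summed macrophage markers reached 14068 CPM in MLT members and 12580 CPM in DEHP_MLT members, against 77.7 and 64.5 CPM in somatic cells. The list includes C1qa, C1qb and C1qc, which chose the members and held 9226 and 7667 CPM of those sums. For these 3 genes the result was therefore set by the rule. Monocyte markers summed to 1966 and 261 CPM in members, against 261 and 126 CPM in somatic cells. Ly6c2, Plac8 and Ccr2 were high in 15 of 65 MLT members, described below, and no Pf4 UMI was found in those 15. Lymphocyte markers summed to 36.3 and 36.1 CPM, with 6 of 8 and 7 of 8 genes at 0, beside 22.7 and 10.6 CPM in somatic cells. Germ cell markers summed to 293 and 369 CPM, beside 223 and 228 CPM in somatic cells. Endothelial markers summed to 55.2 and 50 CPM against 297 and 241 CPM in somatic cells. Stromal markers summed to 385 and 769 CPM in members, against 4520 and 4923 CPM in somatic cells. Ppbp, a platelet chemokine that would accompany Pf4 in platelets, was listed in the DEHP_MLT table with 3 UMIs over its members. Somatic cells here are all barcodes outside the macrophage, neutrophil, erythroid and germ classes, 4474 in MLT and 3227 in DEHP_MLT, and they include endothelial cells.

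2 kinds of blood transcript differed between the libraries beyond the macrophages. Haemoglobin UMIs had a median of 4.93 per 10,000 in MLT members and 79.0 in DEHP_MLT members, and of 4.32 and 57.2 in somatic cells. Erythroid markers summed to 1099 and 31095 CPM in members, beside 560 and 7737 CPM in somatic cells. Neutrophil markers summed to 74.0 and 433 CPM in members, beside 26.2 and 111 CPM in somatic cells. 2 DEHP_MLT members and no MLT member also met the erythroid rule, at least 1000 haemoglobin UMIs per 10,000. The germ cell rule was also met by 2 MLT and 3 DEHP_MLT members. 1 of the DEHP_MLT members that met the erythroid rule, with 1610 haemoglobin and 12.9 C1q UMIs per 10,000, had no Pf4, Mrc1 or Trem2 UMI. The part of this material in the results was not tested.

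Members made up 1.23% of barcodes in MLT (0.952 to 1.57, exact Clopper-Pearson interval) and 0.519% in DEHP_MLT (0.336 to 0.765). The share in DEHP_MLT was lower by 1.25 on the log2 scale, with a counting interval of the log2 ratio from -1.98 to -0.56. The erythroid class held 54 barcodes in MLT and 681 in DEHP_MLT. With those left out of the denominator, the shares were 1.24% and 0.604%. With barcodes under 6923 UMIs left out of both libraries, 42 of 4084 MLT barcodes were members, a share of 1.03%. The order of the libraries was the same in each of these counts.

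The profile against somatic cells is described within each library, over 3461 genes with at least 50 CPM in members of either library. Of these, 389 (11.2%) were at least 4-fold higher in members in both libraries and 43 (1.24%) at least 4-fold lower. The minimum was set on members, so genes that members lack are undercounted. The median log2 ratio to somatic cells over all 3461 genes was 0.16 in MLT and 0.08 in DEHP_MLT. The genes below are ordered by role.

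The C1q chains led the ratios, as the rule requires. C1qa stood at 3205 CPM in MLT members and 2272 CPM in DEHP_MLT members, against 4.13 and 0.99 CPM in somatic cells. C1qb stood at 3502 and 3110 CPM against 4.90 and 1.55 CPM. C1qc stood at 2519 and 2286 CPM against 2.34 and 0.73 CPM. A C1qa UMI was present in 65 of 65 MLT and 24 of 25 DEHP_MLT members, a C1qb UMI in 63 and 25, and a C1qc UMI in 65 and 25. Each chain was thus found in nearly every member, and the highest member supplied at most 6.48% of a chain's UMIs in MLT and 11.9% in DEHP_MLT.

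C1q works with serine proteases and with later components, and these were read at low levels in the same cells. Among 13 other complement components and regulators measured, 6 reached 50 CPM and 2 were at least 4-fold above somatic cells in both libraries: Cfp (properdin) and Cfb (factor B). Cfp stood at 128 and 69.4 CPM in members against 3.04 and 2.81 CPM in somatic cells. C1ra, which encodes a protease partner of C1q, had 4 UMIs in MLT members and 1 in DEHP_MLT members, or 5.81 and 2.78 CPM, below its 29.6 and 10.6 CPM in somatic cells. C1s1, the other protease, had 6 UMIs and 0. Cfi was not detected in either library's members, which allows up to 4.36 CPM in MLT and 8.33 CPM in DEHP_MLT (3 counts of the class total). Of 7 complement receptors tested, 4 were at least 4-fold higher: C3ar1 and C5ar1, the anaphylatoxin receptors, and Itgam and Itgb2, the chains of complement receptor 3. C3ar1 stood at 298 and 492 CPM against 0.72 and 0.46 CPM in somatic cells.

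Genes for identity and survival were shared by both libraries' members. Csf1r stood at 690 and 544 CPM against 2.95 and 1.63 CPM in somatic cells. Adgre1, which encodes the antigen F4/80, stood at 254 and 142 CPM against 0.85 and 0.15 CPM. Spi1, Cebpb, Irf8, Irf5 and Maf were the 5 of 10 transcription factors tested that were at least 4-fold higher in both libraries. Id3, an inhibitor of basic helix-loop-helix factors, was at least 4-fold lower in members: 43.6 and 75 CPM against 180 and 413 CPM. The CSF1 ligands were low in members, with Il34 at 1 UMI in each library and Csf1 at 14 and 2 UMIs.

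Genes of a resident-type list were at least 4-fold higher for 10 of 13 tested. Pf4 stood at 1360 CPM in MLT members and 2430 CPM in DEHP_MLT members, against 2.94 and 1.91 CPM in somatic cells. Mrc1 stood at 518 and 342 CPM against 1.77 and 0.94 CPM. In a microglia-type list 6 of 9 genes tested were at least 4-fold higher. Cx3cr1 stood at 841 and 572 CPM against 3.91 and 1.40 CPM. Fcrls, an Fc receptor-like gene of microglia, stood at 404 and 458 CPM against 0.49 and 0.34 CPM. P2ry12, a purine receptor of microglia, stood at 63.9 and 38.9 CPM against 0.15 and 0.07 CPM. Sall1, a defining microglial factor, had no UMI in the members of either library. Lyve1 and Folr2 marked a minority of members: Lyve1 was found in 7 of 65 and 6 of 25, and Folr2 in 7 of 65 and 10 of 25. To set shares at 1 depth, cells were thinned to 7500 UMIs, which left out 25 MLT members and none in DEHP_MLT. Thinned, Pf4 was found in 60.0% of 40 MLT members (67.7% unthinned) and 84.0% of 25 DEHP_MLT members (88.0% unthinned), against 1.59% and 1.38% of somatic cells. The MLT shares depend on a group of 15 MLT members, described below, in which no Pf4 UMI was found. Most of that group had enough UMIs to stay in after thinning. Unthinned, 44 of the other 50 MLT members (88%) had a Pf4 UMI, the same share as in DEHP_MLT.

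Clearance genes follow. All 10 genes tested of the engulfment machinery were at least 4-fold higher in both libraries, among them Coro1a (656 and 675 CPM against 17.4 and 7.80 CPM), an actin regulator of phagosomes. Of 26 lysosomal genes tested, 16 were at least 4-fold higher. Ctss, a cathepsin of the antigen-processing pathway, stood at 1638 and 783 CPM against 9.21 and 2.67 CPM, and Laptm5, a lysosomal membrane protein of blood cells, at 873 and 789 CPM against 10.7 and 3.64 CPM. Of 11 efferocytosis and scavenger receptors tested, 5 were: Timd4, Stab1, Cd36, Msr1 and Cd68. Timd4 was found in only 14 of 65 MLT and 2 of 25 DEHP_MLT members, and its DEHP_MLT level lay under the floor of 3 counts. It reached 50 CPM in MLT alone, and only with a group of members described below. Mertk, the receptor for Gas6 on dying cells, stood at 50.8 and 36.1 CPM against 13.3 and 13.8 CPM, less than 4-fold. Gas6 itself was higher in somatic cells, at 488 and 393 CPM against 205 and 250 CPM in members. Trem2, a lipid-sensing receptor, stood at 569 and 603 CPM against 1.39 and 1.28 CPM, and Apoe, the main lipid carrier of macrophages, at 11424 and 13283 CPM against 206 and 237 CPM.

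Fc receptors and chemokines completed it. For Fc receptors 5 of 6 were at least 4-fold higher, with Fcgr3 at 470 and 386 CPM against 2.70 and 1.55 CPM. Fcer1g, the shared signalling chain, stood at 2930 and 2366 CPM in members, and in neutrophils at 1091 and 1218 CPM. For chemokines 12 of 14 tested were at least 4-fold higher, with Ccl12 at 756 and 922 CPM against 1.5 and 0.78 CPM. No gene of the proliferation list (15 tested), the immediate-early and heat shock list (21) or the antioxidant list (18) was at least 4-fold higher in both libraries. Mki67, a cell-cycle marker, was at 157 and 83.3 CPM in members and at 160 and 127 CPM in somatic cells. In the plot of the 25 leading genes the macrophage levels stand apart from the other classes, with the nearest values in neutrophils for Fcgr3 and Fcer1g; Ccl4, Ccl3 and Csf1r were also read above 50 CPM in neutrophils of at least 1 library.

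**Figure D1:**
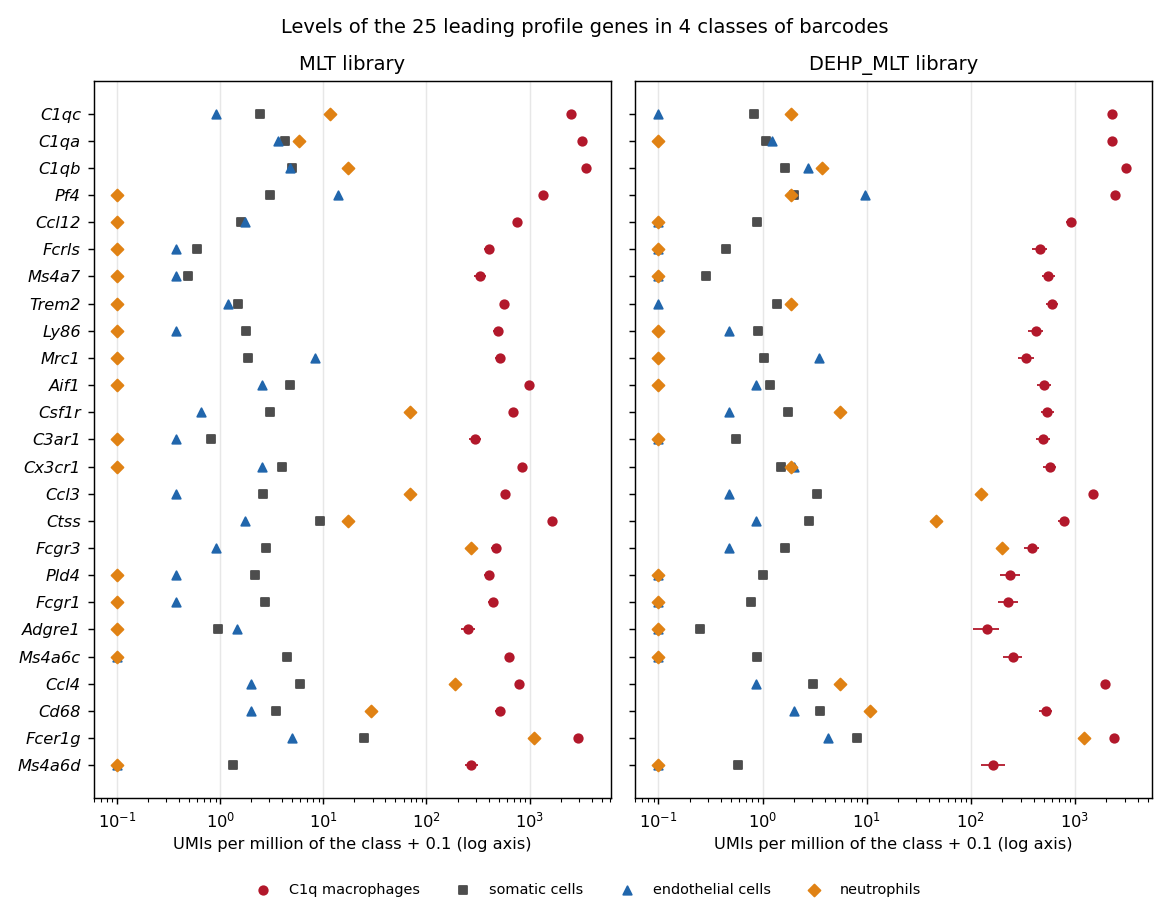
Level of the 25 genes with the largest ratio to somatic cells, in CPM of the class plus 0.1 on a log axis, for macrophages (circles, bars are 95% Poisson intervals), somatic cells, endothelial cells and neutrophils in each library. C1qa reads 3205 and 2272 CPM in macrophages against 4.13 and 0.99 CPM in somatic cells, and Fcer1g reads above 1000 CPM in neutrophils of both libraries.

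The members were not uniform. In MLT, 15 of 65 members held Ly6c2, Plac8 and Ccr2 at 10 or more UMIs per 10,000 together, and 50 did not. No DEHP_MLT member did, and 0 of 25 allows a share of up to 12% by 3 counts, or 13.7% by the Clopper-Pearson interval. This split was chosen after the values were seen, so it is a description with no test. The 2 lowest members inside it stood at 21.2 and 21.8, and the highest outside at 9.45 and 4.62 in MLT and at 9.45 and 3.77 in DEHP_MLT, so no member lay between 9.45 and 21.2. The DEHP_MLT member at 9.45, just under the cut, is the one with 1610 haemoglobin UMIs per 10,000. Those UMIs are part of the total that its values are divided by. It had no Pf4, Mrc1 or Trem2 UMI, and whether it belongs with the high group was not tested. C1q itself did not separate the 2 kinds, with a median of 77.4 per 10,000 in the high group (12.7 to 160) and 72.6 in the others (16.1 to 255). Of the genes that made the split, Plac8 was also found in 28.2% of MLT and 11.8% of DEHP_MLT somatic cells. Ly6c2 was found in 2.19% and 0.93% of them, and Ccr2 in 1.21% and 0.31%.

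Resident genes were lower in the Ly6c2, Plac8 and Ccr2-high group of MLT. A Pf4 UMI was found in 0 of 15 of its members and in 44 of 50 of the others. An Mrc1 UMI was found in 1 of 15 and 36 of 50, and Pf4 or Mrc1 in 1 of 15 and 47 of 50. In DEHP_MLT, Pf4 or Mrc1 was found in 22 of 25 members. Fcrls had no UMI in the high group and stood at 581 CPM in the others. Cx3cr1 was read at 76.0 CPM against 1177 CPM, and found in 6 of 15 against 40 of 50. Of 11 resident-type genes tested between the groups, 10 were lower in the high group and 0 higher, and Timd4, at 76.0 and 41.8 CPM, was not apart. A difference counts as lower or higher here when the Poisson intervals of the 2 levels are apart, they differ at least 1.5-fold and at least 1 reaches 50 CPM. By that rule 548 of 3864 genes (14.2%) were higher in the high group and 345 (8.93%) lower.

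**Figure D2:**
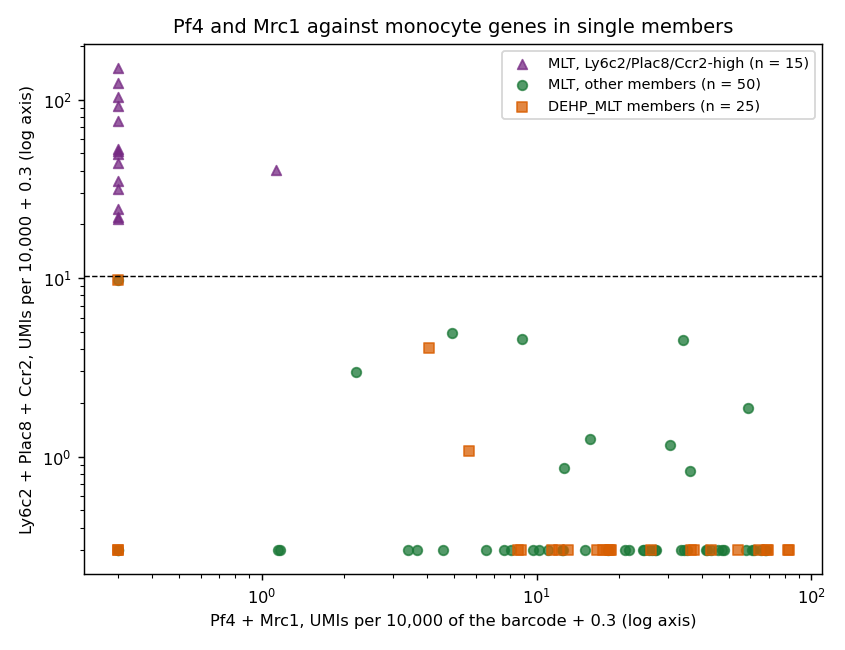
Each point is 1 member: Pf4 plus Mrc1 on the horizontal axis and Ly6c2 plus Plac8 plus Ccr2 on the vertical axis, both in UMIs per 10,000 of the barcode plus 0.3 on log axes, with the split at 10 as a dashed line. The 15 MLT members above the line hold at most 0.83 of Pf4 plus Mrc1, and all 25 DEHP_MLT members lie below it.

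The high group carried monocyte, interferon and antigen-presentation genes together. Of 10 monocyte genes tested 9 were higher in it; 3 of those, Ly6c2, Plac8 and Ccr2, define the group. Interferon response genes were higher for 24 of 25 tested, with Ifitm3 (an antiviral membrane protein) at 5866 against 496 CPM and Irf7 (a regulator of interferon genes) at 1349 against 107 CPM. Summed over the list, the 15 high members held 129 to 386 interferon UMIs per 10,000 with a median of 200, and the 50 others 6.81 to 171 with a median of 18.7. Those ranges overlap: 2 of the other members reached the lowest value of the high group. All 13 MHC class I genes tested were higher, with H2-K1 at 2080 against 749 CPM, as were all 8 MHC class II genes, with Cd74 (the invariant chain) at 1577 against 205 CPM. Arg1 (arginase) was found in 8 of 15 high members and 1 of 50 others, at 1002 and 16.7 CPM.

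Complement was split as well. Cfb stood at 921 CPM in the high group and 69.0 CPM in the others, C3 at 237 and 20.9 CPM, and C2 at 147 and 41.8 CPM. All 3 were higher in the high group. Prdx5, a peroxiredoxin, separated the groups nearly without overlap: 35.0 to 92.7 UMIs per 10,000 in the high group against 0 to 52.5 in the others, with 1 of the 50 at or above the lowest high member. The lysosomal list ran the other way, with 14 of 27 genes lower and 5 higher in the high group. Ctsd, an aspartic protease, stood at 323 CPM against 2913 CPM, while Ctss (2698 against 1171 CPM) and Ctsc (2641 against 995 CPM) were higher. Trem2 stood at 166 against 746 CPM and Apoe at 3277 against 15010 CPM. Proliferation genes were lower for 11 of 15 tested, with Mki67 at 23.7 against 215 CPM.

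Between the libraries, 165 of 3461 genes (4.77%) were higher in DEHP_MLT members and 464 (13.4%) lower. The median log2 ratio of DEHP_MLT over MLT over all 3461 genes was -0.20, and -0.13 for the same genes in somatic cells, so the members' ratios are read against that shift. Because the high group is present in MLT alone, each result was computed a second time over the other 50 MLT members. Then 145 of 3469 genes (4.18%) were higher and 260 (7.49%) lower. Of the 629 genes apart over all members, 322 were apart in the same direction without the high group, 196 lower and 126 higher.

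The 12 genes with the lowest ratios were Cxcl9, Ly6i, Gbp5, Upp1, H2-Aa, Ly6a, Gbp2b, Ly6c2, C3, Serpina3f, Arg1 and Phf11a. Cxcl9, an interferon-induced chemokine for T cells, had 174 UMIs in 12 of 65 MLT members, or 253 CPM, and 0 in DEHP_MLT, at least 30.3-fold lower when set against the floor of 3 counts over the class. A single cell supplied 46.0% of those UMIs. In somatic cells Cxcl9 stood at 39.3 and 0.15 CPM. Gbp5, an interferon-induced GTPase, had 96 UMIs in 25 members and 0, at least 16.7-fold lower. H2-Aa, an MHC class II chain, had 94 UMIs in 22 members and 0, at least 16.4-fold lower, beside 178 and 5.70 CPM in somatic cells. Arg1 had 219 UMIs in 9 members, 41.6% of them in 1, and 1 in DEHP_MLT, a ratio of 114 (counting interval 20.3 to 4542). Ly6c2 had 410 UMIs in 15 members and 2, a ratio of 107 (29.5 to 888). Without the high group, Ly6c2 had no UMI in MLT, and Arg1 stood at 16.7 CPM in 1 of 50 members. Ly6i, Upp1, Gbp2b, C3 and Phf11a were likewise below 50 CPM in the other MLT members, so these 7 genes reached the minimum through the high group. Without the high group, Cxcl9, Gbp5, Serpina3f, H2-Aa and Ly6a were again among the 12 lowest, beside Saa3, H2-Ab1, Gpnmb, Acod1, Hist1h1b, Med13 and Gbp2. Gbp2, a relative of Gbp5, stood at 623 CPM in the other MLT members and 58.3 CPM in DEHP_MLT.

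Antigen presentation was lower in DEHP_MLT members, and in the other cells of that library too. All 11 MHC class I genes tested were lower, with a median log2 ratio of -1.61, and 8 of 10 were lower without the high group, with a median of -0.79. B2m, the light chain of every class I molecule, stood at 2918 CPM in MLT members and 1386 CPM in DEHP_MLT members, and at 584 and 145 CPM in somatic cells. The same 11 genes had medians of -2.38 in somatic, -2.18 in endothelial and -2.18 in germ cells. Of 8 MHC class II genes 7 were lower, with a median of -2.74, and 3 of 5 tested without the high group. H2-Aa, H2-Ab1, H2-Eb1 and Cd74 together had a median of 1.93 UMIs per 10,000 in MLT members (0 to 172) and 0 in DEHP_MLT members (0 to 19.8). 23 of 25 DEHP_MLT members lay below the MLT median. The class II median was -4.22 in somatic cells. Cd86, the costimulatory ligand on the same list, differed less than 1.5-fold, at 186 and 161 CPM.

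Interferon response genes were lower for 18 of 24 tested, with a median log2 ratio of -1.86, and higher for none. Without the high group 11 of 23 were lower and 3 higher, with a median of -0.86. Isg15, a ubiquitin-like modifier, stood at 324 and 133 CPM, but at 50.2 CPM in the other MLT members, so its direction depends on the high group. Ifit1 and Rsad2 were likewise higher in DEHP_MLT once that group was left out, at 181 against 83.6 CPM and 469 against 125 CPM. A single DEHP_MLT member supplied 63.1% of the Ifit1 UMIs there, 55.0% of the Rsad2 UMIs and 35.4% of the Isg15 UMIs. The list had a median of -1.60 in somatic, -1.85 in endothelial and -1.64 in germ cells of the same libraries. Summed per member, it ran from 6.81 to 386 UMIs per 10,000 in MLT (median 28) and from 4.96 to 111 in DEHP_MLT (median 13.5), so the libraries overlap.

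Immediate-early genes went the other way in the members, while their list medians stayed near 0 in somatic, endothelial and germ cells. Of 21 immediate-early and heat shock genes tested, which include fast-responding transcription factors, 17 were higher in DEHP_MLT members and none lower, with a median log2 ratio of 1.17. Without the high group 17 of 21 were higher, with a median of 1.22. The same genes had medians of 0.04 in somatic, -0.11 in endothelial and 0.05 in germ cells, where 3, 4 and 3 of them were over 1.5-fold higher and 0, 1 and 3 over 1.5-fold lower. Klf2, a factor that restrains macrophage activation, stood at 173 and 1147 CPM in members, and at 285 and 460 CPM in somatic cells. Per member, Klf2 had a median of 0.76 UMIs per 10,000 in MLT (0 to 10.5) and 9.82 in DEHP_MLT (0 to 44.5), and 11 of 25 DEHP_MLT members exceeded every MLT member. Dusp1, a phosphatase that switches off stress kinases, stood at 213 and 1119 CPM, and at 126 and 283 CPM in somatic cells. Fosb stood at 279 and 1072 CPM in members, and at 692 and 690 CPM in somatic cells. Atf3 stood at 218 and 697 CPM, and Jun at 1073 and 2549 CPM. Summed per member, the list had a median of 72.7 UMIs per 10,000 in MLT (17.9 to 193) and 164 in DEHP_MLT (30.1 to 511), with 22 of 25 DEHP_MLT members above the MLT median.

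**Figure D3:**
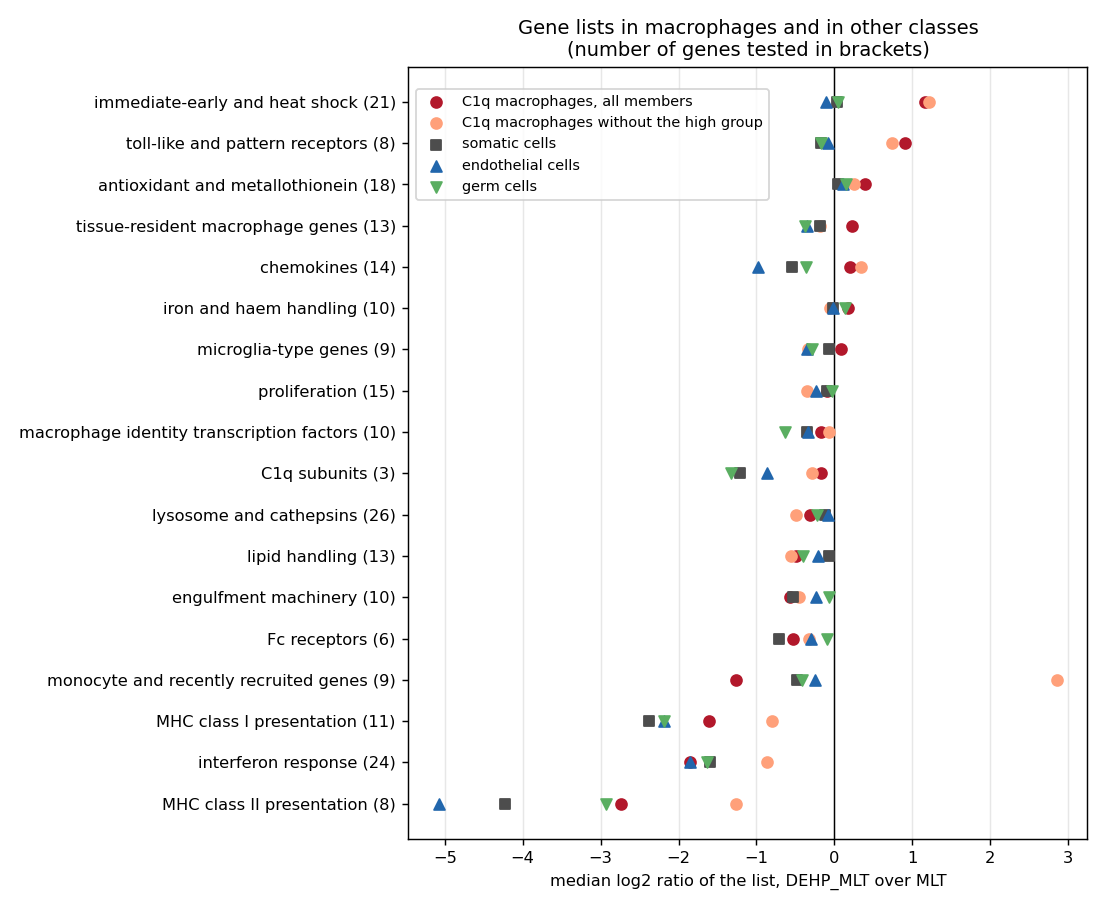
Median log2 ratio of DEHP_MLT over MLT for 18 gene lists in all members, in members without the Ly6c2, Plac8 and Ccr2-high group, and in somatic, endothelial and germ cells; the number of genes tested is in brackets, and for members without the high group it is the number that reached 50 CPM there. The immediate-early list stands at 1.17 in macrophages and near 0 in the other classes, while the MHC lists are below 0 in every class.

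Of 14 chemokines tested 6 were higher in DEHP_MLT members and 5 lower. Leaving out the high group, 5 of 13 were higher and 1, Cxcl9, lower. Ccl3 and Ccl4, inflammatory chemokines of macrophages, stood at 582 and 1477 CPM and at 797 and 1936 CPM, and 1 DEHP_MLT member supplied 40.8% of the Ccl4 UMIs there. Together they had a median of 3.56 UMIs per 10,000 in MLT members (0 to 96.3) and 17.7 in DEHP_MLT members (0 to 157), with 21 of 25 above the MLT median. Ccl9 stood at 97.3 and 378 CPM, and Cxcl2, a chemokine for neutrophils, at 351 and 811 CPM. Cxcl1, of the same kind, had 2 UMIs in MLT members and 38 in 5 DEHP_MLT members, of which 1 cell supplied 60.5%. Pf4, at 1360 and 2430 CPM, was the other of the 6, but at 1959 CPM in the MLT members outside the high group it was not apart. Ccl5, Ccl6, Cxcl9, Cxcl10 and Cxcl16 were lower. Ccl5, a T-cell attractant, stood at 970 and 58.3 CPM, with every DEHP_MLT UMI in 1 member. In MLT it was read at 3121 CPM in the high group and 23 CPM in the others, so the direction turns without that group, with overlapping intervals. Of 8 inflammatory cytokines and mediators tested 1 was higher and 1 lower, with a median log2 ratio of -0.04. Without the high group 2 of 5 were higher and none lower, with a median of 0.21. Tnf stood at 71.1 CPM in 16 of 65 MLT members and 336 CPM in 19 of 25 DEHP_MLT members, and at 85.7 CPM in MLT without the high group. Thinned to 7500 UMIs, Tnf was found in 25% of 40 MLT members (24.6% of 65 unthinned) and 76.0% of 25 DEHP_MLT members (76.0% unthinned), against 0.66% and 0.35% of somatic cells. Of 8 toll-like and pattern receptors tested 4 were higher and none lower: Tlr2, Cd14, Clec4n and Clec4d. Cd14, the lipopolysaccharide coreceptor, stood at 152 and 322 CPM.

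**Figure D4:**
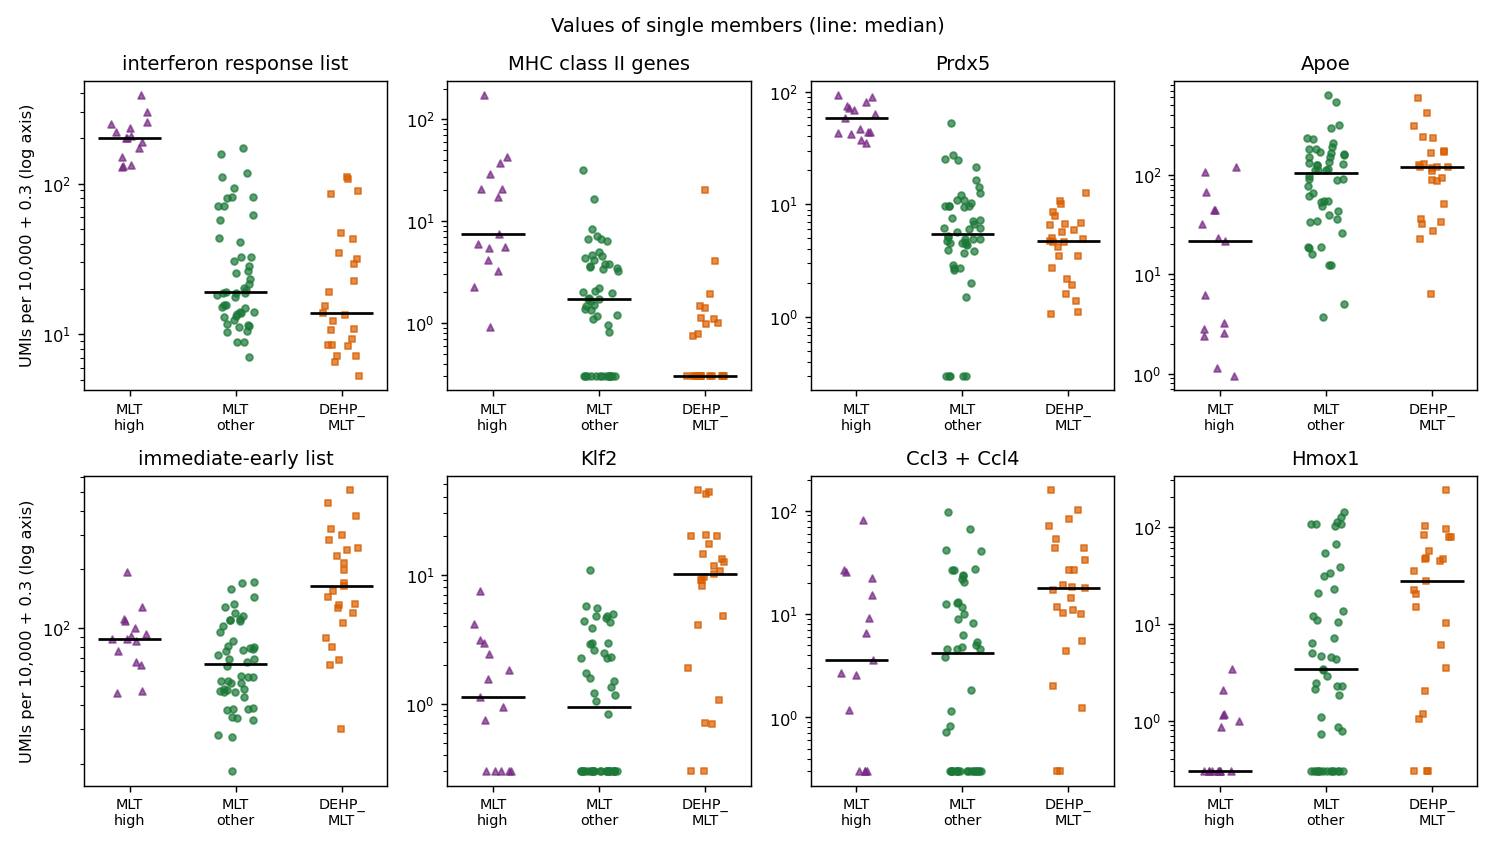
Values of single members in UMIs per 10,000 of the barcode plus 0.3 on log axes, for the 15 MLT members of the Ly6c2, Plac8 and Ccr2-high group, the other 50 MLT members and the 25 DEHP_MLT members, with the median as a line. The immediate-early list has medians of 87.3, 65.3 and 164, and the interferon list medians of 200, 18.7 and 13.5.

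Iron and haem genes were higher in DEHP_MLT members for 4 of 10 tested and lower for 1. Hmox1, which breaks down haem, stood at 1864 CPM in MLT and 4471 CPM in DEHP_MLT members, and at 37.2 and 42.1 CPM in somatic cells. Ftl1 and Fth1, the ferritin chains that store iron, stood at 10524 and 17682 CPM and at 11359 and 18281 CPM. Slc48a1, a haem transporter, stood at 155 and 286 CPM. Hmox1 was 52.2 CPM in the high group and 2662 CPM in the other MLT members. Without the high group it was the 1 gene of 11 tested that was higher, 1 was lower, and the median log2 ratio was -0.05. Per member, Hmox1 ran from 0 to 142 UMIs per 10,000 in MLT (median 1.77) and from 0 to 237 in DEHP_MLT (median 27.5), and 19 of 25 DEHP_MLT members lay above the MLT median. Hmox1 and ferritin went together among members: Spearman's rho was 0.69 over the 50 MLT members outside the high group and 0.78 over the 25 DEHP_MLT members. These cells share a library and, per barcode, a denominator, and the rho values are descriptions. Haemoglobin UMIs of the same members had medians of 4.93 and 79.0 per 10,000 in the libraries, and their part in these levels was not tested.

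**Figure D5:**
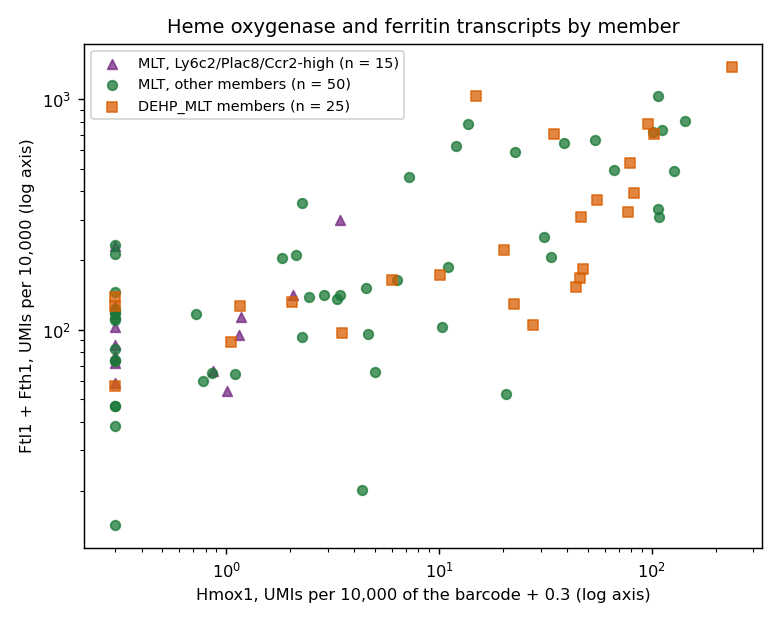
Hmox1 (horizontal, plus 0.3) against the sum of Ftl1 and Fth1 (vertical), both in UMIs per 10,000 of the barcode on log axes, 1 point per member. Members with more Hmox1 hold more ferritin transcript in both libraries, and the 15 high-group members hold at most 3.12 of Hmox1.

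Of 13 resident-type genes tested, 3 were higher in DEHP_MLT members (Pf4, Lyve1 and Ninj1) and 4 lower (Mrc1, Timd4, Fcna and Wwp1), with a median log2 ratio of 0.23. With the high group left out, 1 of 12 was higher (Lyve1) and 3 lower (Mrc1, Fcna and Wwp1), and the median was -0.18. Lyve1, a hyaluronan receptor, stood at 30.5 and 108 CPM, with 21 and 39 UMIs, and 1 DEHP_MLT member supplied 64.1% of the latter. Fcna, which encodes a ficolin that can start the lectin pathway of complement, stood at 66.8 and 13.9 CPM, and 1 MLT member supplied 60.9% of its UMIs there. Timd4, a receptor for phosphatidylserine on dying cells, was found in 14 of 65 members at 52.3 CPM and in 2 of 25 at 5.55 CPM. Timd4 stood, without the high group, at 41.8 CPM (25.5 to 64.6) against 5.55 CPM (0.67 to 20.1), with intervals still apart but below the 50 CPM minimum. Mrc1 was 744 CPM in the MLT members outside the high group against 342 CPM, and Cx3cr1 1177 against 572 CPM. Trem2 (569 and 603 CPM) and Apoe (11424 and 13283 CPM) differed by less than 1.5-fold.

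Complement genes are given by role. The C1q chains, whose level the rule set, stood at log2 ratios of -0.50 (C1qa), -0.17 (C1qb) and -0.14 (C1qc). C1qa was lower in DEHP_MLT without the high group, at 3711 against 2272 CPM. C3 had 60 UMIs in 18 MLT members and 0 in DEHP_MLT, at least 10.5-fold lower, beside 15.3 and 2.20 CPM in somatic cells. Outside the high group C3 stood at 20.9 CPM in 6 of 50 MLT members, below the 50 CPM minimum. Cfb stood at 330 and 16.7 CPM, with 227 and 6 UMIs, and at 69.0 CPM in MLT without the high group. C3ar1 and C5ar1 were higher, at 298 and 492 CPM and at 106 and 194 CPM. Itgam and Itgb2 were lower over all members, at 135 and 69.4 CPM and at 167 and 41.7 CPM, but without the high group Itgam (98.3 CPM in MLT) and Itgb2 (79.5 CPM) were not apart. Fcgr4, a receptor for IgG, stood at 444 and 80.5 CPM, and at 217 CPM without the high group.

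The monocyte list depended on the high group. Over all members 5 of 9 genes tested were lower in DEHP_MLT and 2 higher, with a median of -1.26. Without the high group 4 of 6 were higher and 1 lower, with a median of 2.85. The removed members were chosen by Ly6c2, Plac8 and Ccr2, which belong to this list. Low levels of these genes in the MLT members left were therefore set by the choice, and the turn of the list is a description only. Ccr2 is 1 of the 4, with 21 UMIs in 2 DEHP_MLT members, of which 1 supplied 76.2%.

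Over all genes tested 4.77% were higher and 13.4% lower, or 4.18% and 7.49% without the high group. In the lysosomal list 6 of 26 genes were lower and none higher, led by Ctsc at 1498 and 503 CPM. Ctsc was also higher in the high group than in the other MLT members. With that group left out, 8 of 27 lysosomal genes were lower and none higher. In the engulfment list 4 of 10 were lower and none higher, with Cybb, the catalytic chain of the phagocyte oxidase, at 594 and 181 CPM. Outside the high group 2 of 9 were lower and none higher. In the lipid list 5 of 13 were lower and none higher, with Abca1, a cholesterol exporter, at 154 and 72.2 CPM. Leaving out the high group, 6 of 16 were lower and none higher. Among 15 proliferation genes 2 were higher and 2 lower. The median log2 ratio of these genes was -0.09. Without the high group 1 of 15 was higher and 4 lower, with a median of -0.36. Ube2c stood at 75.5 and 314 CPM and Mki67 at 157 and 83.3 CPM. Thinned as above, Ube2c was found in 37.5% and 72% of members, and in 34.0% and 49.2% of somatic cells. Mki67 was found in 32.5% and 28% of members, or 32.3% and 40% unthinned. The MLT shares of Ube2c and Mki67 include the high group, whose Mki67 level was lower than that of the other MLT members. Most of that group stayed in after thinning. Shares of the other MLT members alone are not given here, so these shares cannot show whether fewer members carried Mki67. The counts of higher and lower genes are small and give the list no common direction. Among 18 antioxidant genes 5 were higher and 4 lower, and without the high group 4 were higher and 1, Prdx5, lower. Prdx5 stood at 2456 and 486 CPM, and at 1012 CPM in MLT without the high group. Srxn1, which restores oxidized peroxiredoxins, stood at 24.7 and 103 CPM. Mt1, a metallothionein, stood at 398 and 1033 CPM, and at 369 and 846 CPM in somatic cells. The melatonin receptor Mtnr1b had no UMI in members of either library, and Pparg, a nuclear receptor of lipid metabolism, had 2 UMIs in each.

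Among the 12 genes with the highest ratios were Slc4a1, Alas2, Stfa1, Cstdc4, Cxcl1, Cstdc5, Retnlg, Cd24a, S100a9, Gem and S100a8. Slc4a1 and Alas2 belong to red cells, and Stfa1, Cstdc4, Cstdc5, Retnlg, S100a9 and S100a8 were high in the neutrophil class of these libraries. Alas2 had 1 UMI in MLT and 45 in 10 DEHP_MLT members, beside 1.09 and 29.2 CPM in somatic cells. S100a9, which the rule limits, stood at 11.6 and 178 CPM in members and at 12.1 and 47.7 CPM in somatic cells, against 80026 and 67603 CPM in neutrophils. Of the 64 S100a9 UMIs in 14 DEHP_MLT members, 1 member supplied 45.3%. Of the 53 S100a8 UMIs in 11 members, 1 supplied 37.7%. For Stfa1, Cstdc4, Cstdc5 and Retnlg, 1 DEHP_MLT member supplied 33.3% to 53.8%. For S100a8 plus S100a9 per barcode, 18 of 25 DEHP_MLT members lay above the MLT median of 0, but only 3 exceeded every MLT member. The summed DEHP_MLT levels of these genes therefore rest in large part on few members. The neutrophil class held 22 MLT and 48 DEHP_MLT barcodes. Cxcl1 and Gem, a small GTPase, differed little in somatic cells, with log2 ratios of 0.19 and 0.27 there.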

How the data were processed

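Single-cell RNA was measured in 2 libraries, 1 per group, of mouse pup ovary. The authors deposited 1 table per library of UMI counts per gene and barcode, with no normalization; the submitters' processing notes name Cell Ranger (version not given in the sources used here), Seurat 4.2.0 and the build mm9. The deposited tables hold 80657690 (MLT) and 117355739 (DEHP_MLT) UMIs over 5277 and 4819 barcodes, and 21018 genes are in both. Each table was assigned by its sample's title, which disagrees with the table's own name.

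Here, members were found by the C1q rule, and UMIs were summed over a class and given per 1000000 (CPM) with exact Poisson intervals; shares have Clopper-Pearson intervals. Log2 ratios used a pseudocount of 1 CPM. A gene was apart between groups at 50 CPM or more in either, 1.5-fold or more, with intervals apart. A count of 0 was set to 3 counts for a bound. With 1 library per group there is no test and no p-value, and the intervals cover counting error only. Every member passed a filter of 500 genes and 20% mitochondrial UMIs. No doublet caller was run; members with transcripts of other types were counted and left out as an alternative. Shares of cells with a UMI were also computed after thinning to 7500 UMIs.

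Genes named are the 25 with the largest ratio to somatic cells, the 12 highest and 12 lowest between libraries (mitochondrial, ribosomal, haemoglobin and unnamed genes left out), list members given with the count of their list, and the rule's markers; a few genes that the rule or the lists take in are not reported here. The members and lists were chosen with earlier results of these data known. The scripts were tested on simulated data and ran on Python 3.11.15; figures were drawn with matplotlib 3.10.9, tables made with pandas 2.3.3, and intervals computed with scipy 1.17.1 over numpy 2.4.6 arrays.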

Additional observations from a re-analysis of the deposited data

Results flagged for a closer look

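Slamf8, a surface receptor of the SLAM family found on myeloid cells, is listed in the MLT table and not in the DEHP_MLT table, so it entered no comparison between the libraries. In the MLT macrophages it stood at 106 CPM (83.1 to 133, 95% Poisson interval), with 73 UMIs in 20 of 65 members, and at 0.91 CPM in MLT somatic cells. It drew attention as a signal outside the genes that both tables hold, and it is given as a value.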

How the results depend on the processing

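No paired analysis was possible because each group is 1 library. Leaving out a replicate was likewise not possible. The log2 ratio of the member shares stayed between -1.27 and -0.87 under the settings tried. Leaving out the Ly6c2, Plac8 and Ccr2-high members, a setting chosen after seeing the data, gave an MLT share of 0.948% and 260 genes lower in DEHP_MLT in place of 464. It also reversed Ly6c2 (log2 ratio 2.71), the monocyte list (median 2.85) and the chemokine receptor list (median 0.19). The removed members were chosen by Ly6c2, Plac8 and Ccr2, so the turn of Ly6c2 was set by the choice. How much of the turn of both lists came from the choice was not tested. Of the list medians nearer to 0, leaving these members out turned the resident-type list from 0.23 to -0.18, the microglia-type list from 0.08 to -0.34, iron and haem handling from 0.17 to -0.05, growth factors from 0.17 to -0.21 and inflammatory mediators from -0.04 to 0.21. With no minimum level, 601 genes were at least 4-fold higher than in somatic cells and 1188 at least 4-fold lower, since more genes enter, and the toll-like and pattern receptor list had a median log2 ratio of -0.052. With all other barcodes as the reference, 14 genes were at least 4-fold lower, and the cause was not tested. Centring on the median ratio gave 190 genes higher and 400 lower between the libraries. Over the other settings, 152 to 192 genes were higher and 389 to 532 lower. Of the recomputed ratios of genes named between the libraries, 198 lay within the counting interval of the value reported, 17 lay outside it and 1 reversed. The depth of 360092 UMIs in the DEHP_MLT members sets a floor of 8.33 CPM there, against 4.36 CPM in MLT.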
